A study of Homo sapiens with 9 samples.

Results

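The genes described here are 675 long intergenic noncoding RNA genes (lincRNAs) in human liver cancer cell lines given THZ531, an inhibitor of the transcription kinases CDK12 and CDK13. They are the rows of the deposited count table with the biotype lincRNA, outside the SNHG host genes, GAS5, MALAT1 and NEAT1, that held at least 10 counts in at least 3 of the 9 libraries. They make up 675 of 4159 such lincRNA rows and of 32990 genes in all. The members were chosen by their counts in all 9 libraries, treated ones included. A gene that was silent in the controls could enter only through treated libraries, and 72 members had under 10 counts in every control. These 72 had to be higher after treatment, so the main summaries are also given for the 603 members with at least 10 counts in some control. Of the 603, 192 reached 10 counts in 1 control and 159 in 2, so these too needed treated libraries to enter. The 603 are thus less set by the rule but not free of it.

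LincRNAs are made by RNA polymerase II, capped and often spliced and polyadenylated like messenger RNAs, but most are kept at low levels. Many start from the promoter of a coding gene and run the opposite way. Such divergent transcripts often end early and are removed by the nuclear exosome. CDK12 and CDK13, each paired with cyclin K, phosphorylate the tail of RNA polymerase II and support elongation and the processing of RNA ends.

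Polyadenylated RNA was sequenced from 3 established lines, Hep3B, Huh7 and SNU449, each as a control, with THZ531 at 250 nM and with THZ531 at 500 nM. Each line and dose gave 1 library, so each dose has n = 3 lines. For the dose tests, the spread behind each p-value is how far the 3 lines differ in their response. For tests within a line it is the difference between the 250 and 500 nM libraries. No line and dose has a repeat culture, so neither measures the spread between repeat cultures. The labels differ on time. By the sample characteristics every treated library had 48 h, and by the protocol Hep3B and Huh7 had 24 h while SNU449 had 48 h, so time and line cannot be told apart. The controls are labelled as having no treatment, with no vehicle named, and all lines were grown in DMEM with serum. In bulk RNA, a change in every cell and a change in the share of cells that make an RNA cannot be told apart.

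The members' own promoters and those they share with coding genes are shown first, because several members described below start beside a coding promoter. RefSeq's promoter table for GRCh38.p14 (250 bases before to 50 after the gene's start) held 260 of the 675 members. It held 1 of the 10 named rises and 1 of the named falls. The first line is the promoter of RP11-85A1.3, which rose at 500 nM, at chr10:99620595-99620894 on the plus strand, with CCAAT and GC box letters in capitals. The second is that of LINC00261, which fell at 500 nM, at chr20:22578593-22578892 on the minus strand, with the TATA box letters in capitals. The window of RP11-85A1.3 follows RefSeq's start for it and ends before the gene's first position in the count table.
RP11-85A1.3: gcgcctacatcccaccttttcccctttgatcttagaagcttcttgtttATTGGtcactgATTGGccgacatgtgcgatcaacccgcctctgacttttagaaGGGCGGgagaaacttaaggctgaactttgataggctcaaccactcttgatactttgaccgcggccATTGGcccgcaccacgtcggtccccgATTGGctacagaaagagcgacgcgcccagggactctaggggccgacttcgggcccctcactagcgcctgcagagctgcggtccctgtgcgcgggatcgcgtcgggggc
LINC00261: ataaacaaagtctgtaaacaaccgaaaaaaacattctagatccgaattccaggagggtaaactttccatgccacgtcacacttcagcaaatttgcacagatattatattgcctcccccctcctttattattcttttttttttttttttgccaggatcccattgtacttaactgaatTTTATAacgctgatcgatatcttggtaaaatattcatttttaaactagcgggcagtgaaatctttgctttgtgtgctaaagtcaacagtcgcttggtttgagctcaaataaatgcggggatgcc

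The next lines are the 250 bases before the start of 3 coding genes whose divergent lincRNA rose at 500 nM, with the bases that lie inside the lincRNA gene in capitals. They are YAP1, a transcriptional coactivator of the Hippo pathway (chr11:102110197-102110446, plus strand), ELOB, the elongin B subunit, listed as TCEB2 in the count table (chr16:2777281-2777530, minus strand), and HEXIM1, an inhibitor of the elongation kinase P-TEFb (chr17:45148225-45148474, plus strand). All 250 bases before YAP1 lie in RP11-732A21.3, 212 of those before ELOB lie in CTD-2270P14.5, and 246 of those before HEXIM1 lie in AC142472.6.
YAP1: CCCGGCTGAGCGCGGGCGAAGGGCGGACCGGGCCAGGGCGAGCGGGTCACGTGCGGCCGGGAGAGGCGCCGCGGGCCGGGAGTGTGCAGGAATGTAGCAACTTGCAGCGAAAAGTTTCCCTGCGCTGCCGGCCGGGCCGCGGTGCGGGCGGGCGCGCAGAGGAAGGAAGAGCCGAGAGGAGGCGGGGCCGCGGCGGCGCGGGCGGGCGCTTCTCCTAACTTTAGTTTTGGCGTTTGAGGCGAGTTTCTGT
ELOB: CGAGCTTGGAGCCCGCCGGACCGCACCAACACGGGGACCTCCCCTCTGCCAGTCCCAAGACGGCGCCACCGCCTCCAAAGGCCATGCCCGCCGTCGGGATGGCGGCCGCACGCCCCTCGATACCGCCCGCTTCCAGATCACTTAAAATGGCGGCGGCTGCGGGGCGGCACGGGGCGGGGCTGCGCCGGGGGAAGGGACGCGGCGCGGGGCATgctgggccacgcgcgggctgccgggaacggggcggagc
HEXIM1: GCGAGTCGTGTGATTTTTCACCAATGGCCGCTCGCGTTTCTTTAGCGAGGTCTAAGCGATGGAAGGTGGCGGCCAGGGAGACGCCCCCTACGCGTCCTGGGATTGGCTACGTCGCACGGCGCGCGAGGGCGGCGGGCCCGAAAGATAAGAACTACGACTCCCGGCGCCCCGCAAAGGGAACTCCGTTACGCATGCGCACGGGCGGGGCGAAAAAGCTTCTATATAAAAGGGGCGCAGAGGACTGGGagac

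Motif letters were searched on both strands as the TATA box (TATAAA), the cyclic AMP response element (TGACGTCA), the AP-1 site (TGANTCA), the CCAAT box (CCAAT), the GC box (GGGCGG) and the CArG box by its name. The GC box letters were in 44.6% of all 27305 promoters and in 56.2% of the 260 members with an entry. They were in 76.4% of the 106 coding neighbours, with an entry, of divergent members within 1 kb. Among the 10545 coding genes of the table with an entry they were in 70.2%. The TATA letters were in 12% of all promoters, 9.62% of members and 4.72% of these coding neighbours, against 5.85% of coding genes. CCAAT was in 35.7%, 38.8% and 38.7% of the same 3 sets, and in 36.9% of coding genes. The AP-1 letters were in 7.76% of all promoters and 7.69% of members, the cyclic AMP element in 1.98% and 3.46%, and the CArG box in 1.29% and 0.385%. The median GC content was 58.3% over all promoters, 62% for members and 69.8% for the same 106 coding neighbours. Motifs can overlap one another, and these matches describe letters only.

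Members were short genes close to coding genes. Their median span was 4256 bp and their median distance to the nearest protein-coding gene was 3673 bp, by the positions in the table. By this distance 97 overlapped a coding gene, 155 lay under 1 kb away, 105 at 1 to 5 kb, 99 at 5 to 20 kb, 120 at 20 to 100 kb and 99 beyond 100 kb. GENCODE v29 held 605 of the 675, which gave strand and exons, and 200 of these had 1 exon in every transcript. Where strand was known for both genes, 215 members ran divergently from their coding neighbour, 150 lay downstream on its strand, 81 upstream on its strand and 67 convergently. In GENCODE v29, 542 members are still typed lincRNA, 17 are protein-coding and 70 are absent. The libraries are stranded per the labels, but whether the counting used strand is not given in the sources used here, so reads of the 97 overlapping members cannot be told apart from those of the gene they overlap. At the edge of the rule, 30 lincRNA rows had a third-highest count of 10 and entered, and 37 had 9 and did not. MIR3591, named MIR122HG in GENCODE v29 as the host of the liver microRNA 122, entered with 9, 3 and 4 counts in Hep3B, 82, 26 and 10 in Huh7 and 0 in each SNU449 library. KC6 stayed out with 0, 1 and 0 counts in Hep3B, 84, 21 and 9 in Huh7 and 0 in SNU449.

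Library totals ran from 5701981 counts (Huh7 at 500 nM) to 20657610 (Hep3B control), and members took 0.221% to 0.371% of the counts of a library. CDK12, CDK13 and CCNK did not pass the 500 nM test (adjusted p = 0.583, 0.425 and 0.491, edgeR quasi-likelihood test), and an inhibitor need not change their RNA. Summed over 8 hepatocyte markers, the controls held a TMM-scaled level of 23560 CPM (counts scaled to library size) in Hep3B and 6144 in Huh7 but 5.44 in SNU449, where 3 of 8 reached 10 counts. SNU449 is thus labelled a liver cancer line with hepatocyte markers near 0. That sum was 49460 in Hep3B and 30270 in Huh7 at 500 nM. The immune list (PTPRC, CD74, LYZ and CD14) summed to 133 and 128 CPM in the Hep3B and Huh7 controls and to 307 and 646 at 500 nM, nearly all from CD74 and LYZ, with PTPRC, which defines leukocytes, at 0 CPM in both 500 nM libraries. The 3 fibroblast markers summed to 4.12 and 113 CPM in those controls and to 28.8 and 552 at 500 nM, with DCN at 0 to 0.27 CPM, and 3 endothelial markers summed to 0.254 to 3.51 CPM over the 9 libraries. Mitochondrial genes took 4.28% of counts in the Hep3B control and 12.4% at 500 nM, 3.85% and 13.1% in Huh7, and 4.32% and 4.47% in SNU449. These shares and marker sums moved with the lincRNA results below in the same 4 libraries, and their part in them was not tested.

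At control level most members were scarce, and a few were abundant in 1 line. The median member had 0.735 CPM in Hep3B, 0.774 in Huh7 and 0.967 in SNU449, and 81, 81 and 78 members had 0 counts there. LINC00657, now called NORAD, binds Pumilio proteins and had the highest mean level, with 199.6 CPM in the Hep3B control, 242.9 in Huh7 and 251.5 in SNU449. LINC01419 had 158.9 CPM in the Huh7 control, 0 counts in Hep3B and 2 counts in SNU449. MEG3, an imprinted growth-linked RNA, had 102.3 CPM in the SNU449 control and 3 and 1 counts in the Hep3B and Huh7 controls. NORAD was high in all 3 lines, whereas LINC01419 and MEG3 were each near 0 in 2 of them. Per kilobase of exon, the scale on which genes can be compared, NORAD had a level of 37.4 CPM per kb in the Hep3B control and LINC00261 25.7. In the Huh7 control LINC01419 (104.5) was above NORAD (45.5) and LINC00261 (42.8). On that scale RP11-184M15.1 (50.1) stood close to NORAD (47.1) in SNU449, and MEG3 was at 4.41. The exon length used joins the exons of all annotated transcripts, which can lower the value of genes with many transcripts, MEG3 among them. By a rule of at least 8-fold over both other controls, 5 members were restricted to Hep3B, 20 to Huh7 and 61 to SNU449. ERVH48-1, an RNA of an endogenous retrovirus locus, had 24.25 CPM in the Hep3B control and 0 counts in the other 2 controls. RP11-184M15.1 had 81.4 CPM in SNU449 against 1 and 3 counts in Hep3B and Huh7. With 1 control per line these levels have no replicate and no test.

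At 500 nM 79 members rose and 7 fell against control, of 658 tested (edgeR quasi-likelihood test over 15479 genes, two-sided, Benjamini-Hochberg adjusted p under 0.05). The higher call was made for 3.45% of all genes tested and the lower call for 0.724%, against 12.01% and 1.06% of the members. Because the rule let silent genes in through treated libraries, the count less set by the rule is that among the 586 tested members with 10 counts in a control, of which 30 rose (5.12%) and 7 fell (1.20%). Scaling by total counts gave 107 higher and 30 lower among all tested members. The 79 members that rose included 49 with under 10 counts in every control. At 250 nM 30 members rose and 2 fell, where 1.06% and 0.155% of all genes were called, and of the 586 members 6 rose and 2 fell. All 30 and both 2 were also called at 500 nM, but the 2 doses share their controls. Between 500 and 250 nM 0 of 658 members passed by edgeR, DESeq2 and limma-voom, with 0% of all genes called and 20 members at unadjusted p under 0.05. With only the 6 libraries of that comparison, 9 members passed.

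The calls rested on Hep3B and Huh7. Over the 79 members that rose, the median log2 ratio of a treated library to the control of its line was 2.90 and 3.39 in Hep3B at 250 and 500 nM and 2.70 and 4.27 in Huh7. In SNU449 it was 0.03 and 0.32, and 35 of the 79 were higher in all 6 treated libraries. Without Hep3B 0 members were called at 500 nM, without Huh7 2 were, and without SNU449 264 were. Leaving out only the Hep3B or the Huh7 library at 500 nM left 8 and 6 calls, and leaving out the SNU449 library at 500 nM gave 203. With no term for cell line (no replicate block) the count was 0, and with only the 6 libraries of the comparison it was 8.

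The rises named here had at most 22 counts in any control and more in each treated Hep3B and Huh7 library. All but CTD-2270P14.5 and RP13-516M14.1 had under 10 counts in every control. Those entered only through treated libraries and had to be higher after treatment, so their direction is no independent result. Where a control has few counts the fitted fold change depends on the prior count and is no bound, so counts come first. RP11-347I19.7 is a 1-exon gene that overlaps a coding gene on the opposite strand, so its reads may be shared with that gene. It had 3, 52 and 61 counts in Hep3B (control, 250 and 500 nM), 1, 27 and 72 in Huh7 and 0, 1 and 3 in SNU449. Hep3B and Huh7 separated fully from their controls, and SNU449 stayed at or under 3 counts. Its log2 fold change at 500 nM was 6.78 ± 0.75 (SE, adjusted p = 0.000489, edgeR), higher in 6 of 6 libraries. CTD-2639E6.9 (chr19:48963975-48965158) lies 143 bp upstream of FTL, the ferritin light chain gene, on the same strand. It had 2, 162 and 110 counts in Hep3B, 4, 38 and 41 in Huh7 and 0, 2 and 2 in SNU449. At 500 nM the Hep3B ratio was 148-fold, with a 95% counting interval of 40.0 to 1236. FTL itself had log2 ratios of 1.98 (Hep3B) and 2.35 (Huh7) at 500 nM and did not pass the test (adjusted p = 0.106, edgeR). Transcription that starts early and reads into FTL cannot be told apart from a separate lincRNA in these counts.

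RP11-85A1.3 (chr10:99621055-99621918, named SLC25A28-DT in RefSeq) runs divergently from SLC25A28, a mitochondrial iron carrier gene, 446 bp away. Its counts were 1, 43 and 64 in Hep3B, 2, 13 and 18 in Huh7 and 0, 2 and 1 in SNU449. At 500 nM its Hep3B ratio was 172-fold (95% counting interval 29.8 to 6898) and the Huh7 ratio 43.9-fold (10.5 to 390). SLC25A28 had log2 ratios of -0.97 and -1.18 in these 2 libraries and did not pass the test (adjusted p = 0.155, edgeR). CTD-2270P14.5 (chr16:2777319-2780568) starts 22 bp from ELOB and had 21, 108 and 231 counts in Hep3B, 9, 54 and 97 in Huh7 and 1, 1 and 2 in SNU449. Its log2 fold change at 500 nM was 5.04 ± 0.53 (adjusted p = 0.000489, edgeR). ELOB moved the same way in Hep3B and Huh7, with 47.1, 153 and 190 CPM and 41.4, 155 and 269 CPM, and missed the threshold (1.56 ± 0.41, adjusted p = 0.0516).

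Members farther from a coding gene were also among the rises. AC069513.4 (chr3:195655565-195657927), which has 3 exons and lies 62955 bp from MUC20, had 9, 126 and 97 counts in Hep3B, 8, 58 and 60 in Huh7 and 4, 6 and 16 in SNU449. Its log2 fold change at 500 nM was 4.42 ± 0.66 (adjusted p = 0.0037, edgeR). RP13-516M14.1 (chr17:82293716-82294910) had 22, 245 and 170 in Hep3B, 7, 123 and 149 in Huh7 and 11, 21 and 21 in SNU449. SNORD3B-1, typed as a small nucleolar RNA in GENCODE v29 and one of several near-identical U3 copies, had 3, 98 and 117 counts in Hep3B and 0, 10 and 11 in Huh7, at least 17.9-fold higher in Huh7 at 500 nM against a floor of 3 counts. Reads of the U3 copies may be shared between them. The other named rises were CTD-2526A2.2, RP11-365P13.5 and KB-1410C5.5, with at most 6 counts in any control and 15 to 59 counts at 500 nM in Hep3B and Huh7. All 10 named rises passed without SNU449. Without Hep3B 0 of the 9 that could be fitted passed, and without Huh7 1 of 10 did. Without the 500 nM library 3 passed for Hep3B and 5 for Huh7.

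Of the 7 members that fell, 3 are typed as protein-coding genes in GENCODE v29 (C14orf132, LINC01314 and AC009014.3). LINC00261, a liver and endoderm lincRNA beside FOXA2, the gene of a forkhead factor of endoderm and liver, was lower than control in every treated library. It had 142.9, 74.0 and 55.9 CPM in Hep3B, 237.8, 93.3 and 54.0 in Huh7 and 27.2, 22.3 and 17.2 in SNU449. Its log2 fold change at 500 nM was -1.40 ± 0.29 (adjusted p = 0.0163, edgeR), lower in 6 of 6 libraries. FOXA2 had log2 ratios of 1.19 (Hep3B) and 1.07 (Huh7) at 500 nM, opposite in sign to LINC00261, and did not pass the test (adjusted p = 0.143). PKI55 (LINC01963 in GENCODE v29), downstream of the repair gene XRCC5, had 9.72, 4.73 and 2.85 CPM in Hep3B, 36.6, 8.49 and 6.75 in Huh7 and 6.59, 5.99 and 4.87 in SNU449 (-1.59 ± 0.40, adjusted p = 0.0424). These values were again highest in the control of each line. RP11-350F4.2, which is absent from GENCODE v29, had 17.9, 5.07 and 3.84 CPM in Hep3B, 13.8, 4.31 and 2.43 in Huh7 and 9.12, 7.10 and 6.36 in SNU449. It fell by 1.71 ± 0.40 on the log2 scale (adjusted p = 0.0329) and lies 4607 bp from PUS7L, whose fold change was -1.08 ± 0.33 (adjusted p = 0.0726). C14orf132, from 25.4 to 4.39 CPM (Hep3B), 8.96 to 2.43 (Huh7) and 35.4 to 26.8 (SNU449) between control and 500 nM, fell by 1.55 ± 0.40 (adjusted p = 0.0463). LINC01314 fell from 633 to 60 and 13 counts in Huh7 and from 156 to 16 and 7 in Hep3B, with 0 counts in SNU449. AC009014.3 had 391, 12 and 25 counts in Hep3B, and RP11-54O7.3, 3864 bp from SAMD11, had 271, 37 and 25. Of the 4 falls that went the same way in all 6 libraries, 0 passed without Hep3B, without Huh7 or without either of their 500 nM libraries. With DESeq2 size factors or limma-voom, and without the SNU449 library at 250 nM, 2 of these 4 passed.

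**Figure D1:**
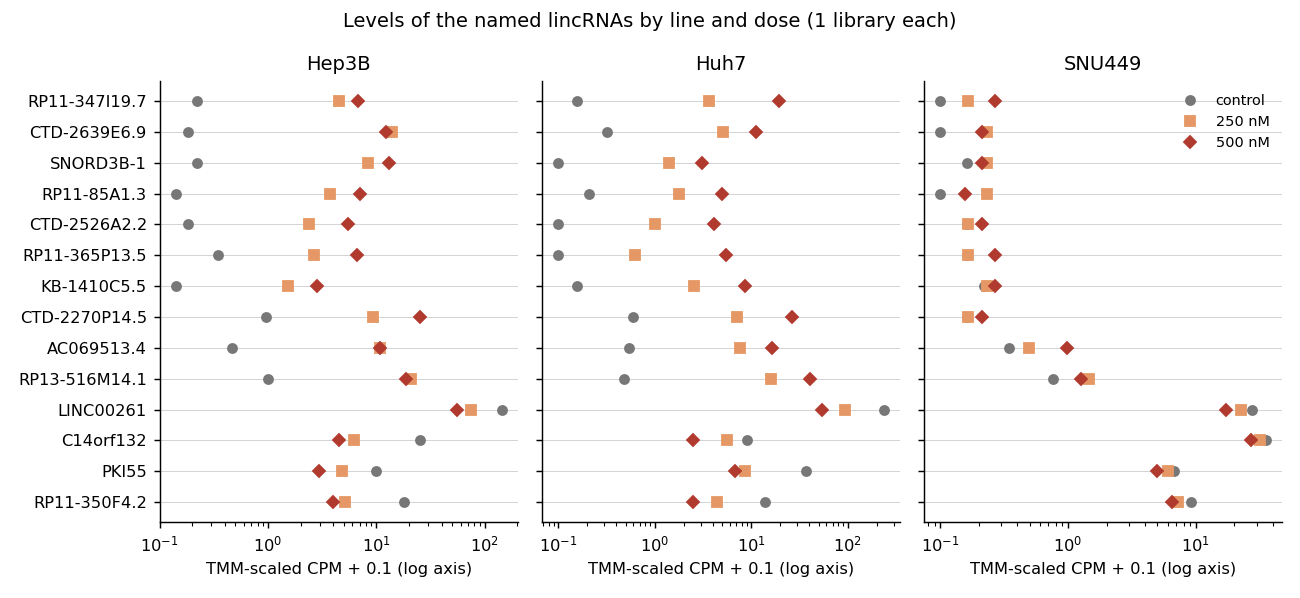
TMM-scaled CPM plus 0.1 (log axis) of the 10 named rises and the 4 falls with 1 direction in all 6 treated libraries, in Hep3B, Huh7 and SNU449, with 1 point per library (grey control, orange 250 nM, red 500 nM). In Hep3B and Huh7 the treated points of the rises lie to the right of the control and those of the falls to the left. In SNU449 RP11-347I19.7 goes from 0 to 0.166 CPM at 500 nM and LINC00261 from 27.2 to 17.2.

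Within single lines the same comparison was made with the 250 and 500 nM libraries against the 1 control. In Hep3B 162 members rose and 21 fell, where 9.82% and 6.72% of all genes were called, and 95 and 21 of these had 10 counts in a control. In Huh7 173 rose and 24 fell, against 13.3% and 6.04% of all genes, and 109 and 24 of these had 10 counts in a control. In SNU449 0 members passed, as did 0% of all genes, with 7 members at unadjusted p under 0.05 and 0 by DESeq2 and limma-voom. Of the members that rose, 124 did so in both Hep3B and Huh7, which is 76.5% of the Hep3B and 71.7% of the Huh7 rises. Of the rises, 67 in Hep3B and 64 in Huh7 were members with under 10 counts in every control. Such members could enter only through treated libraries of more than 1 line, so part of this overlap was set by the rule. The overlap without them, and that over all genes, is not given here. Of the members that fell, 7 were shared (33.3% and 29.2%), and 0 went opposite ways. These tests rest on 1 control each, and the 250 and 500 nM libraries stand in for replicates.

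Over the members the 500 nM ratios of Hep3B and Huh7 went together, with Pearson's r = 0.82 and Spearman's rho = 0.79 across 675 genes. For the 603 members with 10 counts in a control they were 0.75 and 0.72. These are genes of 2 library pairs and not independent replicates. By size alone, 227 members were at least 2-fold higher in both, 47 at least 2-fold lower in both and 5 opposite. The 227 include all 72 members that were under 10 counts in every control, and without them there were 155. Of the 658 tested members 40.1% were at least 2-fold higher in Hep3B, against 18.6% of all genes. For Huh7 the shares were 44.2% and 24%, and for SNU449 3.50% and 0.956%. Among the 586 tested members with 10 counts in a control they were 32.8%, 37.4% and 3.24%.

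**Figure D2:**
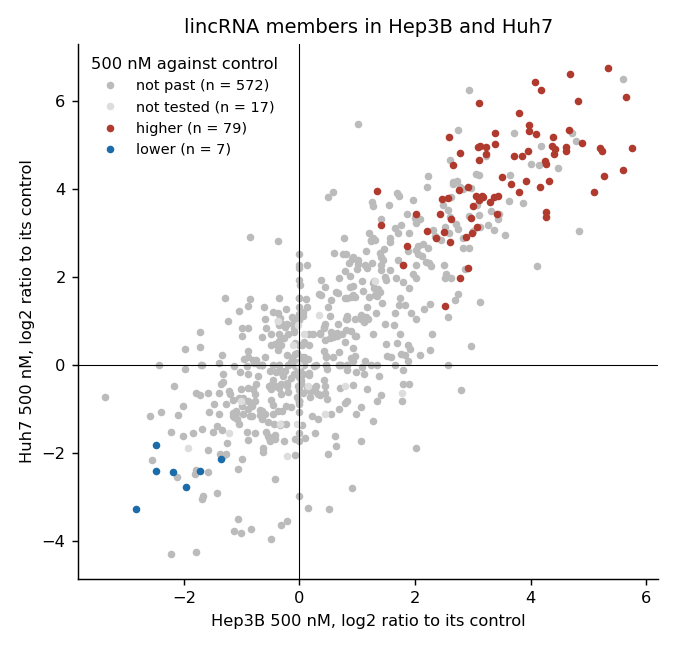
Each point is 1 member, with its log2 ratio to control at 500 nM in Hep3B (horizontal) and Huh7 (vertical), coloured by the call of the 500 nM test. The 79 rises lie in the upper right and the 7 falls in the lower left, and grey members also fill both corners.

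Set beside other gene classes, the members lay between coding and antisense genes. The median log2 ratio of members was 0.47 and 0.46 in Hep3B (250 and 500 nM), 0.19 and 0.61 in Huh7, with 0.00 for both SNU449 libraries. For the 603 members with 10 counts in a control it was 0.22 and 0.15, 0.00 and 0.19, and 0.00. Coding genes had -0.13 and -0.11 in Hep3B, -0.05 and -0.18 in Huh7, and antisense genes 0.88 and 1.03, and 0.62 and 1.52. In the Hep3B and Huh7 libraries 48 to 54 members had 0 counts in both the library and its control, which puts them at exactly 0. Over the members with at least 10 counts in the pair, the median was 0.60 and 0.68 in Hep3B, 0.35 and 0.91 in Huh7, and 0.00 and -0.07 in SNU449. Scaling by total counts in place of TMM moved the median of all genes by -0.55 in Hep3B and -0.88 in Huh7 at 500 nM, and the members' median was then 0.00 in both. Genes were also grouped by mean CPM over all 9 libraries, treated ones included, so a rise could itself move a gene into a higher group. No grouping by control level was made, so these medians do not show how genes well expressed before treatment responded. At a mean of 5 CPM or more 114 members had medians of 0.91 and 1.20 at 500 nM in Hep3B and Huh7, against -0.15 and -0.25 for 10711 coding genes. At a mean under 1 CPM, 179 members and 586 coding genes were both at 0.00.

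**Figure D3:**
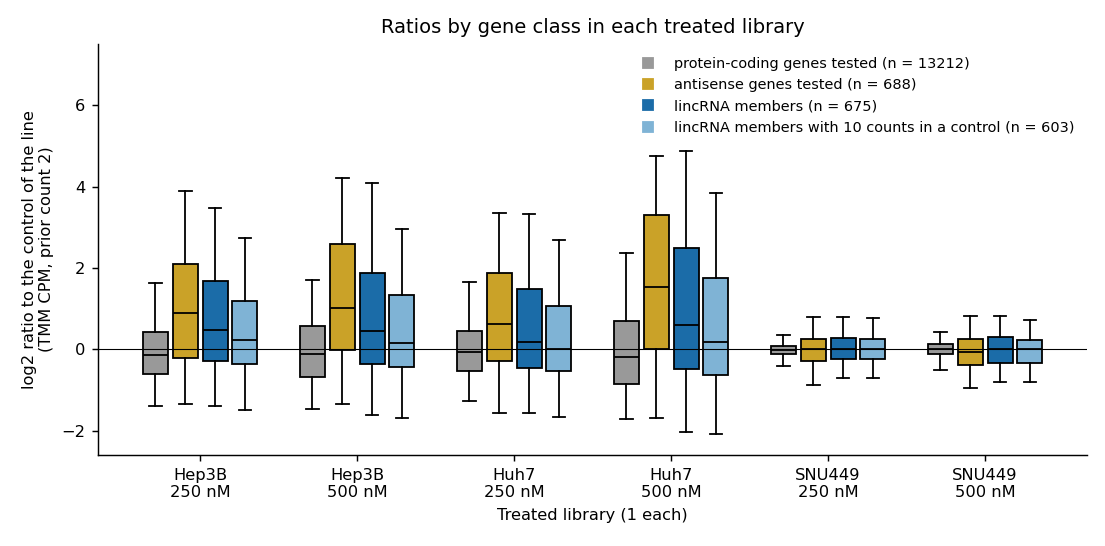
Log2 ratio of each treated library to the control of its line (1 library each) for coding genes, antisense genes, all members and the members with 10 counts in a control; boxes are quartiles with the median line and whiskers the 5th and 95th percentiles over genes. At 500 nM the member median is 0.46 in Hep3B and 0.61 in Huh7, and 0.00 in SNU449.

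Ratios differed by the distance to the nearest coding gene. At 500 nM the 155 members under 1 kb had medians of 1.51 in Hep3B and 2.28 in Huh7, and the 97 overlapping members 1.13 and 1.503. At 1 to 5 kb the medians were 0.00 and -0.24, at 5 to 20 kb 0.15 and 0.20, at 20 to 100 kb 0.16 and 0.09, and beyond 100 kb 0.00 and 0.00. In SNU449 the medians at 500 nM ran from -0.08 to 0.00 over the 6 classes. The rule favoured the close class, since 30.9% of lincRNA rows under 1 kb entered against 10.0% beyond 100 kb, and 29 of the 155 against 2 of the 99 had under 10 counts in every control. Without those members the medians under 1 kb were 0.95 and 1.27 (126 members) and beyond 100 kb 0.00 and 0.00 (97 members). Over all 155 members under 1 kb, scaling by total counts gave 0.95 and 1.40. By the test at 500 nM 35 of 151 members under 1 kb rose and 0 fell, and 3 of 97 beyond 100 kb rose and 1 fell. With 10 counts in a control 17 of 122 rose under 1 kb and 1 of 95 beyond 100 kb, where 3.45% of all genes were called higher. All 7 falls lay beyond 1 kb from a coding gene, where most of the 675 members lie (all but the 97 overlapping and the 155 under 1 kb). By the within-line tests close members fell too. Under 1 kb 3 members fell in Hep3B and 4 in Huh7, and 1 overlapping member fell in Hep3B and 0 in Huh7.

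**Figure D4:**
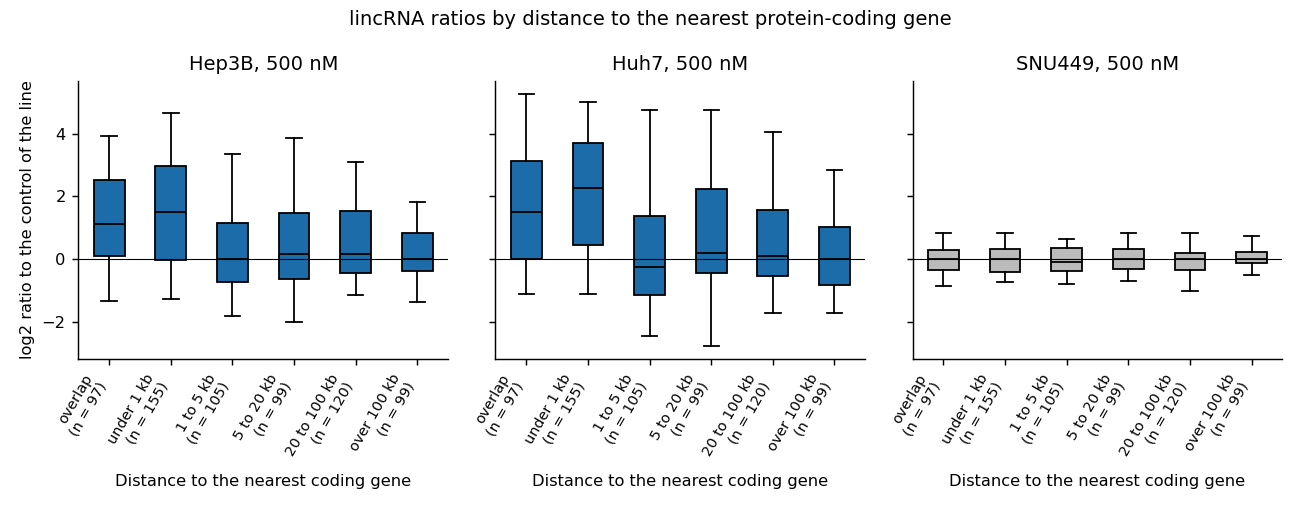
Log2 ratio to control at 500 nM of members grouped by distance to the nearest coding gene, in each line; boxes are quartiles with the median line and whiskers the 5th and 95th percentiles over members. The medians under 1 kb are 1.51 in Hep3B and 2.28 in Huh7, and those beyond 100 kb are 0.00 in both.

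Strand and exon number divided the members further, and the split by exon number was chosen after the values were seen. Divergent members within 1 kb (127) had medians of 1.69 in Hep3B and 2.46 in Huh7 at 500 nM, and 1.23 and 1.66 among the 101 with 10 counts in a control. Divergent members beyond 1 kb (88) had 0.48 and 0.59, and 0.00 and 0.11 among the 76 with 10 counts in a control. Close members in other places were few. The 9 within 1 kb downstream on the coding strand had 2.76 and 3.06 (1.41 and 1.95 for the 8 with 10 counts in a control), and the 8 upstream on it had 1.92 and 1.55 (0.53 and 1.03 for 6). The 1 convergent member within 1 kb had -0.04 and 0.27. Beyond 1 kb downstream (141 members) both medians were 0.00. The 60 divergent members within 1 kb that have 1 exon had 2.58 and 3.52, and 90.0% and 93.3% of them were at least 2-fold higher. With 2 or more exons the 67 divergent members had 0.43 and 0.86. The 1-exon members elsewhere (140) had 0.97 and 1.60, and members with 2 or more exons elsewhere (338) had 0.16 and 0.15. Among members with 10 counts in a control, the 42 divergent 1-exon members within 1 kb had 1.94 and 3.09, with 85.7% and 90.5% at least 2-fold higher. By the same minimum the 59 with 2 or more exons had 0.00 and 0.66, the 112 other 1-exon members 0.27 and 0.47, and the 323 others 0.06 and 0.06. In SNU449 the 60 had -0.20 at 500 nM. Of the 79 rises, 54 of the 78 with known exons have 1 exon, and 28 are divergent within 1 kb. Of all 675 members, 200 of the 605 with known exons have 1 exon, and 127 are divergent within 1 kb. The rises include 49 members that entered only through treated libraries. Among the 30 rises with 10 counts in a control, 21 have 1 exon and 13 are divergent within 1 kb. Of all 603 such members, 154 have 1 exon, 382 have 2 or more, and 101 are divergent within 1 kb.

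**Figure D5:**
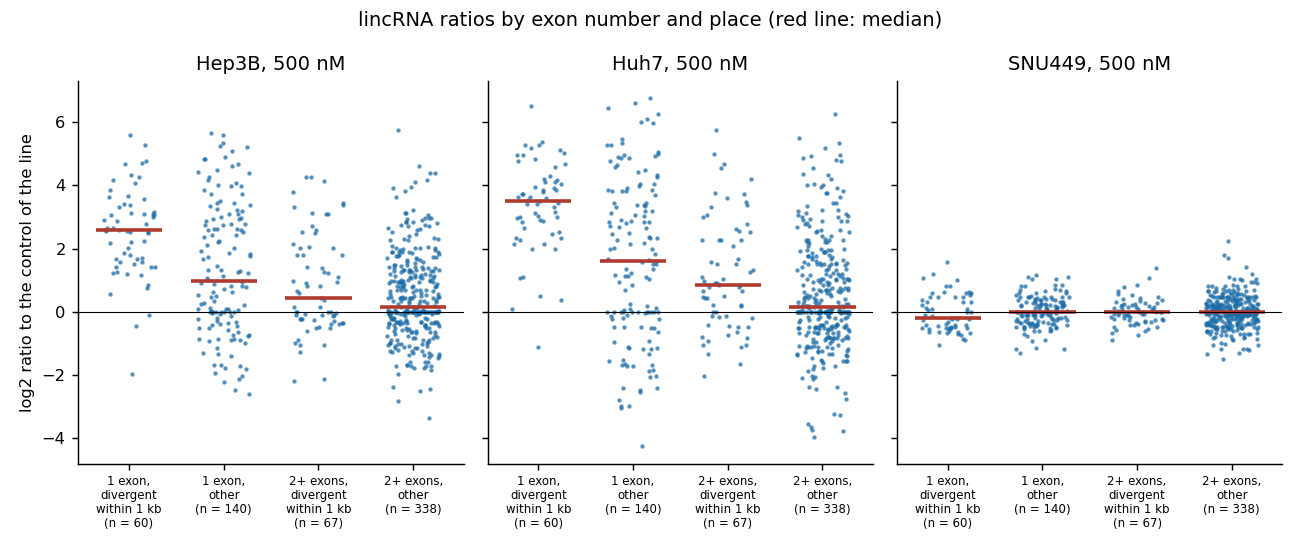
Log2 ratio to control at 500 nM of each member (point) by exon number and place, in each line, with the median as a red line. Divergent 1-exon members within 1 kb sit highest in Hep3B (median 2.58) and Huh7 (3.52), and the 4 groups lie near 0 in SNU449.

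Coding neighbours of divergent members had median ratios near 0. Over 126 divergent pairs within 1 kb with a tested coding gene, the lincRNA median at 500 nM was 1.70 in Hep3B and 2.49 in Huh7, and the coding median was -0.13 and -0.33. The lincRNA ratio was above the coding ratio in 102 of 126 pairs in each line. For the 100 pairs whose lincRNA had 10 counts in a control it was so in 76, with lincRNA medians of 1.24 and 1.82 and coding medians of -0.11 and -0.21. Pearson's r was 0.01 and -0.09 across all 126 pairs and 0.08 and 0.04 across the 100, as a description over genes. For 35 pairs with the lincRNA downstream on the same strand within 5 kb it was 0.53 and 0.47, with Spearman's rho of 0.32 and 0.27. Among the 74 rises with a tested coding neighbour, 2 neighbours rose and 0 fell by the test. Of all 13212 coding genes tested 1.74% were called higher and 0.78% lower, so these counts are near the background. These were CD7, a T-cell surface antigen gene near RP13-516M14.1 (1.95 ± 0.32, adjusted p = 0.0057, edgeR; 19958 bp away), and HOXC6, a homeobox gene (3.97 ± 0.49, adjusted p = 0.00107). AC012531.25 overlaps HOXC6 on the same strand, so their reads may be shared.

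Apart from members that overlap a coding gene, the 5 called members closest to one were divergent from it. Of these, RP11-191L17.1 and RP11-732A21.3 had under 10 counts in every control and entered only through treated libraries. RP11-191L17.1 (chr2:48440043-48440597), 1 bp from PPP1R21, a gene of endosomal sorting, had 5, 19 and 27 counts in Hep3B, 2, 9 and 13 in Huh7 and 0, 0 and 2 in SNU449. PPP1R21 had -0.25 and -0.76 at 500 nM. RP11-732A21.3 (chr11:102109827-102110457), 4 bp from YAP1, had 1, 45 and 23 counts in Hep3B, 2, 26 and 25 in Huh7 and 1, 4 and 0 in SNU449. In the same libraries YAP1 had 154.3, 105.8 and 99.6 CPM in Hep3B and 148.4, 98.0 and 58.6 in Huh7 (-0.60 ± 0.29 at 500 nM, adjusted p = 0.193, edgeR). The lincRNA was thus higher and YAP1 lower in both lines, although YAP1 did not pass the test. CTD-2547G23.4 (ZKSCAN2-DT), 21 bp from the zinc finger gene ZKSCAN2, had 47, 69 and 200 counts in Hep3B, 12, 19 and 32 in Huh7 and 13, 16 and 23 in SNU449. AC142472.6 (chr17:45146730-45148470), 32 bp from HEXIM1, was higher in all 3 lines, with 42, 59 and 57 counts in Hep3B, 12, 14 and 14 in Huh7 and 3, 9 and 15 in SNU449. As CPM that is 1.72 to 6.26 in Hep3B, 0.664 to 3.78 in Huh7 and 0.181 to 0.83 in SNU449 from control to 500 nM (2.13 ± 0.48, adjusted p = 0.0258). HEXIM1 had log2 ratios of 2.70 and 3.45 in Hep3B and Huh7 at 500 nM and 0.24 in SNU449, and missed the threshold (2.02 ± 0.56, adjusted p = 0.0577). Here lincRNA and coding gene were higher together in Hep3B and Huh7.

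The called members farthest from a coding gene were mixed. Of those given here, AC017002.2, RP11-65J3.14 and LINC00115 had under 10 counts in every control and entered only through treated libraries. AC017002.2 (chr2:111491943-111494811) had 2, 17 and 49 counts in Hep3B, 2, 5 and 29 in Huh7 and 0 in SNU449 (5.89 ± 0.84 at 500 nM, adjusted p = 0.00423, edgeR). It lies 271460 bp from the nearest coding gene but inside MIR4435-1HG on the same strand, so reads may be shared. C12orf36 (LINC01559 in GENCODE v29) had 13, 82 and 49 counts in Huh7, at most 2 in any Hep3B library and 0 in SNU449. RP11-65J3.14, 126346 bp from NTMT1, had 3, 54 and 71 counts in Hep3B and 1, 17 and 24 in Huh7. LINC00115 had 9, 30 and 49, then 4, 11 and 19, then 5, 8 and 10 counts in the 3 lines in the same order, and rose by 3.24 ± 0.69 (adjusted p = 0.0197).

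By the within-line tests some members with more counts stood out. LINC00936 (ATP2B1-AS1 in GENCODE v29), on the opposite strand of the calcium pump gene ATP2B1, had 38, 151 and 160 counts in Huh7 and 12, 82 and 64 in Hep3B, and rose within Huh7 by 3.88 ± 0.54 (adjusted p = 0.00204, edgeR). ATP2B1 had log2 ratios of -0.45 and 0.04 in these lines at 500 nM. RP11-54O7.17, 911 bp downstream of HES4, a Notch-linked repressor gene, had 10, 83 and 165 counts in Huh7 and 36, 276 and 416 in Hep3B, and HES4 had log2 ratios of 2.34 and 2.40 at 500 nM without passing the dose test (adjusted p = 0.0914). In the other direction BAIAP2-AS1 had 546, 84 and 46 counts in Hep3B and fell there by 1.87 ± 0.33 (adjusted p = 0.00531), although it is divergent from BAIAP2 at 241 bp. In SNU449 the named members with the largest ratios at 500 nM did not pass, such as LINC00857 with 9.12, 14.4 and 14.4 CPM and LINC00667 with 16.6, 12.5 and 11.4.

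Of 4 lists of known lincRNAs, chosen with earlier results of these data known, 1 held a member that passed at 500 nM. Of 8 microRNA host lincRNAs 0 passed at 500 nM by edgeR, DESeq2 or limma-voom, with 2 at unadjusted p under 0.05. MIR4435-1HG rose within Hep3B (1.27 ± 0.33, adjusted p = 0.0242, edgeR), MIR222HG rose within Huh7 (1.93 ± 0.54, adjusted p = 0.0298), and MIR210HG, a hypoxia-linked gene, fell within Hep3B from 33 counts to 1 and 0. Of the 2 liver-linked members LINC00261 fell, and LINC01018 did not pass. Of 14 well-studied lincRNAs tested 0 passed at 500 nM by any of the 3 tools (6 at unadjusted p under 0.05), 3 rose within Hep3B and 4 within Huh7 (24.6% and 26.3% of members and 9.82% and 13.3% of all genes did), and LINC00467 fell within Huh7 (-1.82 ± 0.50, adjusted p = 0.0268). LINC00511 was in both sets of rises, with log2 ratios of 1.33 and 1.19 at 500 nM. Of 6 members linked to stress, p53 or DNA damage 0 passed at 500 nM by the same tools (2 at unadjusted p under 0.05). The median ratios of these 4 lists at 500 nM were -0.17, -0.9999, 0.96 and 0.03 in Hep3B. For Huh7 they were 0.02, -1.07, 1.13 and 0.24, where all genes had -0.03 and -0.07. NORAD, which supports genome stability, had log2 ratios of 0.54, 1.13 and 0.23 at 500 nM in the 3 lines without passing (adjusted p = 0.171). LINC01419 had 158.9, 515.4 and 773.2 CPM in Huh7 and rose there (2.02 ± 0.39, adjusted p = 0.00757). ERVH48-1 had 24.25, 76.5 and 76.6 CPM in Hep3B and rose there (1.66 ± 0.36, adjusted p = 0.0115).

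The response differed between lines for 6 members by an F test that it was equal in all 3, where 1.14% of all genes were called and 0.912% of members. MAPKAPK5-AS1, which overlaps the kinase gene MAPKAPK5 on the opposite strand, had 6.25, 42.6 and 31.6 CPM in Hep3B, 9.12, 55.5 and 77.4 in Huh7 and 9.97, 8.60 and 8.74 in SNU449. It was higher after treatment in Hep3B and Huh7 and slightly lower in SNU449 (adjusted p = 0.0258, edgeR). The other 5 were AC015912.3 (its GENCODE v29 name), FLJ20021, TRAM2-AS1, MAN1B1-AS1 and AC144652.1. With DESeq2 size factors 0 members passed this test and with DESeq2 itself 35.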

How the data were processed

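Per the labels, polyadenylated RNA was prepared with the TruSeq RNA kit. Per the submitters' processing notes the tools were HISAT2 and HTSeq and the build GRCh38. Neither versions, annotation release nor strand setting is given in the sources used here. Raw counts per gene were deposited, and their sums per library ran from 5701981 to 20657610. No per-sample column was left unused.

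The main tool was edgeR 4.0.16 under R 4.3.3. It scaled counts by TMM and ran two-sided quasi-likelihood tests on the 15479 genes that passed filterByExpr, with Benjamini-Hochberg adjustment over them. Of the 675 members 658 were tested and 17 were not. The dose fit held cell line and dose (4 residual degrees of freedom). The line is the replicate and the block, because same-numbered libraries come from the same line by their labels. A second fit gave each line its own mean and treated term (3 residual degrees of freedom). Log2 ratios to the control of a line used CPM with a prior count of 2, and have no replicate and no test. Ratios from few counts have 95% exact binomial (Clopper-Pearson) intervals, and a ratio against 0 uses a floor of 3 counts per library. Both cover counting error only. The fits were also run on simulated counts, with the same spread for all genes, equal changes in the 3 lines and no changes in genes of low mean count. That run therefore does not cover calls at low counts or responses that differ between lines.

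Strand, exons and exonic length came from GENCODE v29, matched on Ensembl identifier and place. Promoters came from RefSeq, matched on Ensembl identifier or, where that failed, on symbol. The place had to overlap the gene or lie close to it, and the first entry of a gene was used. The members and lists were chosen with earlier results of these data known. Named members were the 10 largest rises and 5 largest falls at 500 nM with mean log2 CPM of at least 0 and 1 direction in 6 libraries (4 falls met this), the 5 called members closest to a coding gene without overlapping it and the 5 farthest, the largest ratios within each line, up to 3 rows at each side of the count minimum, the F test calls, the line-restricted members, the 10 highest levels and list members, of which the text gives a part. The 3 falls LINC01314, AC009014.3 and RP11-54O7.3 and the pair of AC012531.25 were named to complete small counts, after their values were seen. The coding neighbour of 1 named member is not reported here. Alternatives used DESeq2 1.42.0 and limma 3.58.1.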

Additional observations from a re-analysis of the deposited data

Results flagged for a closer look

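Members whose response differed between the 3 lines by the F test (edgeR, 3 lines with 1 control each) were higher after treatment in Hep3B and Huh7 and near or below control in SNU449. For MAPKAPK5-AS1 the adjusted p was 0.0258, with log2 changes within lines of 2.57 ± 0.38 (Hep3B), 2.86 ± 0.39 (Huh7) and -0.20 (SNU449). For AC015912.3 (named by its clone in the count table), divergent from TRIM25, a ubiquitin ligase gene, the adjusted p was 0.0258, with 2, 146 and 98 counts in Hep3B, 0, 33 and 48 in Huh7 and 13, 9 and 8 in SNU449. FLJ20021, on the opposite strand of the calcineurin gene PPP3CA, had an adjusted p of 0.0453, with log2 changes of 3.36 ± 0.58, 3.60 ± 0.58 and -0.12. TRAM2-AS1 had an adjusted p of 0.0468, with 2.46 ± 0.42, 2.58 ± 0.43 and -0.11. MAN1B1-AS1, typed as antisense in GENCODE v29, had an adjusted p of 0.0469, with 4.08 ± 0.72, 4.45 ± 0.71 and -0.60. AC144652.1, divergent from the sterol-sensing gene INSIG1, had an adjusted p of 0.0477, with 3.32 ± 0.67, 3.78 ± 0.73 and -0.48. Treatment time by the protocol was 24 h in Hep3B and Huh7 and 48 h in SNU449, so line and time cannot be told apart here.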

How the results depend on the processing

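The counts of called members moved with the choice of libraries. At 500 nM (main count 86) they ran from 0 to 264 without 1 line, at 250 nM (32) from 0 to 207, for both doses together (90) from 0 to 269. Without 1 treated library they ran from 6 to 203 at 500 nM, and leaving out Hep3B or Huh7 at 500 nM gave 8 and 6. At 250 nM they were 15 without Huh7 at 250 nM and 18 without Huh7 at 500 nM, with a lowest of 1, and for both doses 12, 57, 22 and 197 without Hep3B at 500 nM, Huh7 at 250 nM, Huh7 at 500 nM and SNU449 at 500 nM. With no replicate block all 3 were 0. With only the 6 libraries of the comparison the counts were 8 at 500 nM, 0 at 250 nM and 9 between doses. With total counts they were 137 at 500 nM (107 higher, 30 lower) and 150 for both doses (107 and 43). Without a filter they were 186, 119 and 188, and with limma-voom 132 and 147 at 500 nM and for both doses. DESeq2 size factors left 19 at 250 nM. The F test count (6) was 0 with DESeq2 size factors, 2 with total counts, 79 without a filter, 35 with DESeq2 and 20 with limma-voom. Among members with 10 counts in a control, a subset chosen after the data were seen, the counts were 37 at 500 nM, 8 at 250 nM and 116 within Hep3B. At least 10 counts in at least 6 libraries left 308 members.

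Medians of all members with total counts were 0.14 (Hep3B, 250 nM) and 0.00 (Hep3B and Huh7, 500 nM), and with 10 counts in a control 0.22 (Hep3B, 250 nM) and 0.19 (Huh7, 500 nM). Beyond 100 kb the Huh7 median at 500 nM was -0.30 with total counts, and with 10 counts in the pair -0.0467 in Hep3B and 0.23 in Huh7. The cause was not tested. The lowest depth, Huh7 at 500 nM, limits genes of a few counts.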
